A study of Homo sapiens with 6 samples.

Results

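Cohesin and the SMC5/6 complex were followed through the guides against their subunits in a pooled CRISPR knockout screen. Of 7 subunit genes looked for by symbol in the count table (SMC1A, SMC3, RAD21, STAG1, STAG2, SMC5 and SMC6), 5 had guides, out of 7093 genes in all. These were SMC3, SMC1A and RAD21, which form the cohesin ring, its accessory subunit STAG2, and SMC6, and each had 10 guides. STAG1 and SMC5 were not analysed here. The cells were HAP1, a near-haploid human line derived from a chronic myeloid leukaemia, in a SETD2-mutant and a parental form, with 2 samples of each line and 2 of the guide library. SETD2 is the methyltransferase that places trimethylation on H3K36, and neither the SETD2 allele nor the number of clones is stated. Both lines received the guide virus with Polybrene at a multiplicity of infection of 0.7, were divided into replicates only afterwards and grew under puromycin for 12 doublings, so the replicates of a line share a transduction. The origin of the library samples is not described.

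Cohesin is a ring-shaped ATPase that holds sister chromatids together between replication and anaphase and shapes chromosomes by extruding loops of DNA. Its SMC1A and SMC3 arms are closed by the kleisin RAD21, and a STAG subunit, either STAG1 or its paralog STAG2, binds the kleisin. SMC5/6 is a related SMC complex that acts in homologous recombination and in the resolution of joined or entangled DNA. STAG2 is frequently mutated in human cancers, among them myeloid leukaemias, and cells without it are known to rely on STAG1.

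Total counts were 25082426 and 33878004 in SETD2-mutant, 38197301 and 34003792 in parental and 38428425 and 34679351 in library samples. A guide whose knockout slows growth becomes rarer than in the library, so a negative log2 change marks depletion. For each gene, the log2 changes that edgeR fitted to its guides were averaged, with a standard error (SE) over guides. Guides of a gene share their target and are not replicates of a condition. A gene was called where robust rank aggregation (RRA) of its guides gave an adjusted p below 0.05 over all genes tested. The guide sequences and cut sites were not analysed here, and the guides are named by their identifiers.

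In both lines 4 of the 5 genes were depleted against library, SMC3, SMC1A, RAD21 and SMC6, and STAG2 was not called. Of all 7090 genes tested, 9.04% were called depleted in SETD2-mutant cells and 9.90% in parental cells. None of the 5 was enriched, against 1.13% of all genes in SETD2-mutant and 1.10% in parental cells. The median change of the 5 genes was −2.35 in SETD2-mutant and −2.40 in parental cells, where the median of all genes was −0.05 in SETD2-mutant and −0.01 in parental cells. Cytosolic ribosomal protein genes, a yardstick of essential genes, had medians of −4.08 in SETD2-mutant and −3.53 in parental cells over 53 genes.

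**Figure D1:**
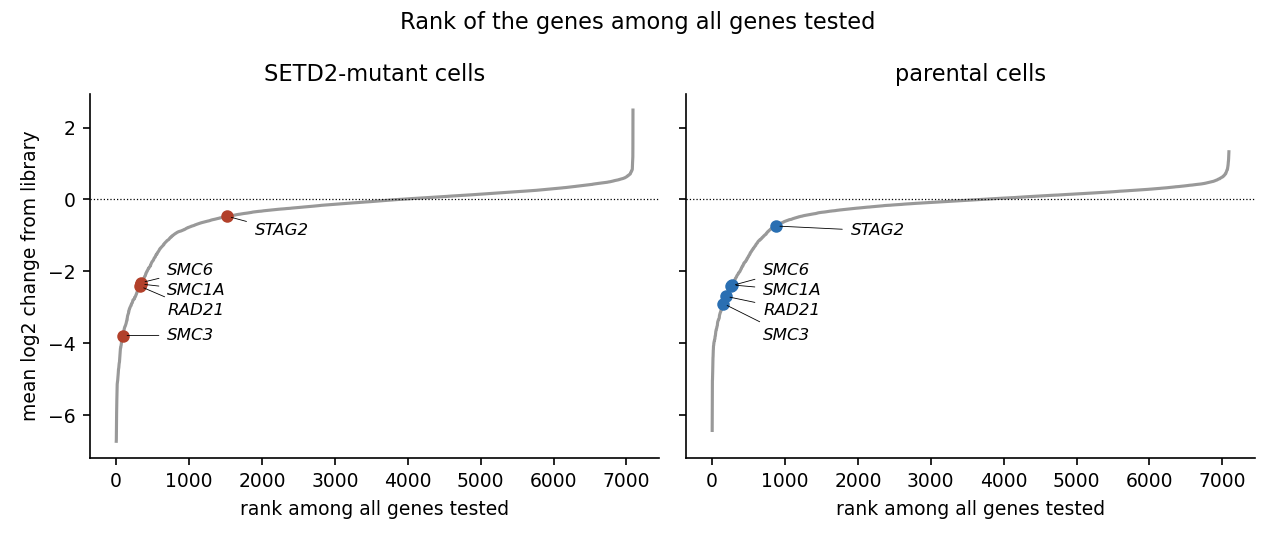
Mean log2 change from library (y axis) of all 7090 genes tested, ordered from most depleted to most enriched (x axis), in SETD2-mutant cells on the left and parental cells on the right, with the 5 genes as points. SMC3 lay lowest at ranks 93 and 155, RAD21, SMC1A and SMC6 followed within ranks 325 to 341 in SETD2-mutant and 189 to 271 in parental cells, and STAG2 lay apart at ranks 1525 and 873.

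SMC3, one arm of the cohesin ring (chromosome 10, 110567695 to 110606048 in GRCh38), was the most depleted of the 5 in both lines. Its 10 guides summed to 20.6 and 26.9 CPM (counts scaled to a common library size) in SETD2-mutant samples, 43.3 and 36.0 CPM in parental samples and 208.5 and 207.7 CPM in library samples. Both SETD2-mutant sums lay below both parental sums, as they did for 34% of all genes, and all 4 were below the library sums. The SETD2-mutant samples thus held 9.91% and 12.9% of the library abundance, and the parental samples 20.8% and 17.3%. The mean change from library was −3.78 (SE 0.420, adjusted p = 1.13e-05 by edgeR and RRA) in SETD2-mutant and −2.89 (SE 0.468, adjusted p = 1.88e-05) in parental cells, with 10 of 10 guides down in each. In SETD2-mutant cells 9 of 10 SMC3 guides stood under 25% of their library abundance, and in parental cells 7 did. Of all 71470 guides, 5372 did so in SETD2-mutant and 4434 in parental cells.

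SMC1A, the other arm of the ring, lies on the X chromosome at 53374149 to 53422728. Its guides summed to 59.4 and 59.3 CPM in SETD2-mutant samples, 65.3 and 61.5 CPM in parental samples and 238.5 and 238.6 CPM in library samples. Both SETD2-mutant sums lay slightly below both parental sums, again as for 34% of all genes, but the means over guides of log2 CPM overlapped between the lines. The sums came to 24.9% and 24.9% of library in SETD2-mutant and 27.4% and 25.8% in parental samples. The mean change was −2.35 (SE 0.283, adjusted p = 1.13e-05 by edgeR and RRA) in SETD2-mutant and −2.37 (SE 0.292, adjusted p = 9.48e-06) in parental cells. SMC1A had the most even guides of the 4 depleted genes, with an SD over guides of 0.896 in SETD2-mutant and 0.925 in parental cells, and all 10 were called down singly in each line. The parental call of its weakest guide, HZD_DDR_1902 (−0.60, adjusted p = 0.0445 by edgeR), was lost without either parental or either library replicate, at adjusted p from 0.0703 to 0.240.

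RAD21, the kleisin that joins the SMC heads and is cut by separase at anaphase, lies on chromosome 8 at 116845934 to 116874776. Its guides summed to 67.7 and 61.7 CPM in SETD2-mutant samples, 51.5 and 51.9 CPM in parental samples and 235.4 and 227.1 CPM in library samples. Here both SETD2-mutant sums lay above both parental sums, as they did for 32.7% of all genes. The mean change was −2.41 (SE 0.496, adjusted p = 0.000334 by edgeR and RRA) in SETD2-mutant and −2.69 (SE 0.479, adjusted p = 1.88e-05) in parental cells. The guides of RAD21 spread widely, between −4.92 and −0.25 in SETD2-mutant and between −5.15 and −0.70 in parental cells. Guide HZD_DDR_1542 was the most depleted in parental cells (−5.15), and HZD_DDR_1545 the least (−0.70, adjusted p = 0.0392 by edgeR). The call of HZD_DDR_1545 was lost without parental replicate 2 and without any single SETD2-mutant or library replicate, at adjusted p from 0.0587 to 0.159.

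SMC6, the partner of SMC5 in the SMC5/6 core (chromosome 2, 17663812 to 17753810), was depleted to about the level of SMC1A. Its guides summed to 81.4 and 92.9 CPM in SETD2-mutant samples, 65.9 and 75.2 CPM in parental samples and 244.4 and 251.3 CPM in library samples. Both SETD2-mutant sums lay above both parental sums (32.7% of all genes did so), but the means over guides of log2 CPM overlapped between the lines. The mean change was −2.31 (SE 0.526, adjusted p = 2.25e-05 by edgeR and RRA) in SETD2-mutant and −2.40 (SE 0.454, adjusted p = 9.48e-06) in parental cells. Its guides were uneven. HZD_DDR_1920 was at −5.26 in SETD2-mutant and −5.48 in parental cells, whereas HZD_DDR_1918 was at 0.04 in SETD2-mutant and −0.31 in parental cells and was called in neither. Without parental replicate 2 it was called down in parental cells (adjusted p = 0.0488).

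STAG2, the X-linked accessory subunit (123960560 to 124102656), stood apart from the other 4. The identifiers of its 10 guides carry the label ODT, whereas those of the other 4 genes carry DDR. Whether this difference in guide class matters was not tested. Its guides summed to 95.7 and 102.0 CPM in SETD2-mutant samples, 84.2 and 75.3 CPM in parental samples and 148.5 and 146.1 CPM in library samples. Both SETD2-mutant sums lay above both parental sums, which was so for 32.7% of all genes, and all 4 lay below the library. The sums came to 64.9% and 69.3% of library in SETD2-mutant and 57.2% and 51.1% in parental samples. The mean change was −0.47 (SE 0.241, 9 of 10 guides down) in SETD2-mutant and −0.74 (SE 0.234, 8 of 10 guides down) in parental cells. By edgeR and RRA it was not called in SETD2-mutant (adjusted p = 0.937) or in parental cells (adjusted p = 0.181). No STAG2 guide was under 25% of library in either line. Of all 71470 guides, 5372 were under 25% in SETD2-mutant and 4434 in parental cells, so most guides were not.

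Whether STAG2 counts as depleted depended on how its guides were combined. With limma on the means over guides it was called depleted in SETD2-mutant (−0.48, adjusted p = 0.00133) and in parental cells (−0.74, adjusted p = 0.000202), but that test called 38% of all genes depleted in SETD2-mutant and 31.3% in parental cells. With edgeR on counts summed per gene it was also called depleted, by −0.67 in SETD2-mutant (adjusted p = 6.48e-05) and by −0.98 in parental cells (adjusted p = 5.53e-06). That test called 32.7% of all genes depleted in SETD2-mutant and 30.3% in parental cells.

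**Figure D2:**
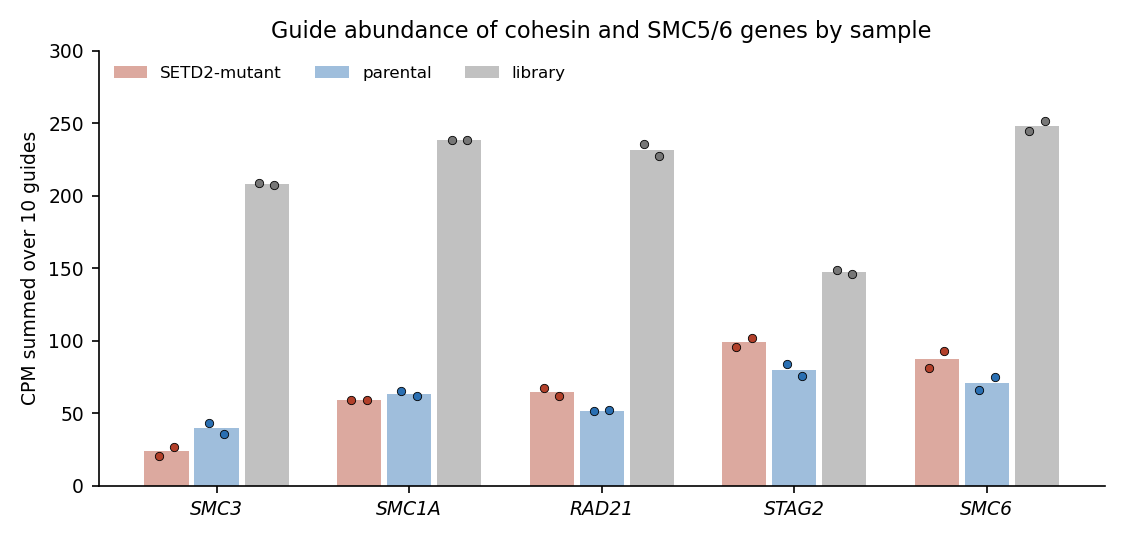
Abundance of the 10 guides of each gene, summed, in CPM (y axis), for SETD2-mutant, parental and library samples from left to right within each gene; bars are means of 2 samples and points the samples. SMC3 is lowest in SETD2-mutant samples at 20.6 and 26.9 CPM, and STAG2 keeps 51.1% to 69.3% of its library abundance in the cell lines.

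The order of depletion in SETD2-mutant cells was SMC3, RAD21, SMC1A, SMC6 and STAG2, at −3.78, −2.41, −2.35, −2.31 and −0.47. RAD21, SMC1A and SMC6 lay closer together than the SE of any of them, while the gaps above and below them exceeded the sum of the neighbours' SEs. In parental cells the order was SMC3, RAD21, SMC6, SMC1A and STAG2, at −2.89, −2.69, −2.40, −2.37 and −0.74, and among the first 4 each gap between neighbours was smaller than the SE of at least 1 of them. These gaps were not tested.

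Guides of the same gene differed widely in abundance. Of the 50 guides of the 5 genes, edgeR called 42 down in SETD2-mutant cells and 44 in parental cells at an adjusted p below 0.05 over all guides, compared with 23.7% of all 71470 guides in SETD2-mutant and 21.1% in parental cells. In SETD2-mutant cells 1 guide was called up, HZD_ODT_09619 of STAG2 (1.25, adjusted p = 0.00199), and in parental cells 0 were. Of all guides, 22.2% were called up in SETD2-mutant and 18.9% in parental cells. That STAG2 guide had 11.4 and 11.7 CPM in SETD2-mutant samples, 4.88 and 4.57 CPM in parental samples and 4.71 and 5.0 CPM in library samples. It was singled out after its values were seen. The strongest guide against SMC3 in parental cells was HZD_DDR_1907 at −5.35 and the weakest HZD_DDR_1915 at −0.71, which was not called (adjusted p = 0.0729) but was without either SETD2-mutant replicate (adjusted p = 0.0244 and 0.0246). For SMC1A the strongest was HZD_DDR_1904 at −3.78 and the weakest HZD_DDR_1902 at −0.60, and for STAG2 the strongest was HZD_ODT_09621 at −1.76 and the weakest HZD_ODT_09624 at 0.34.

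**Figure D3:**
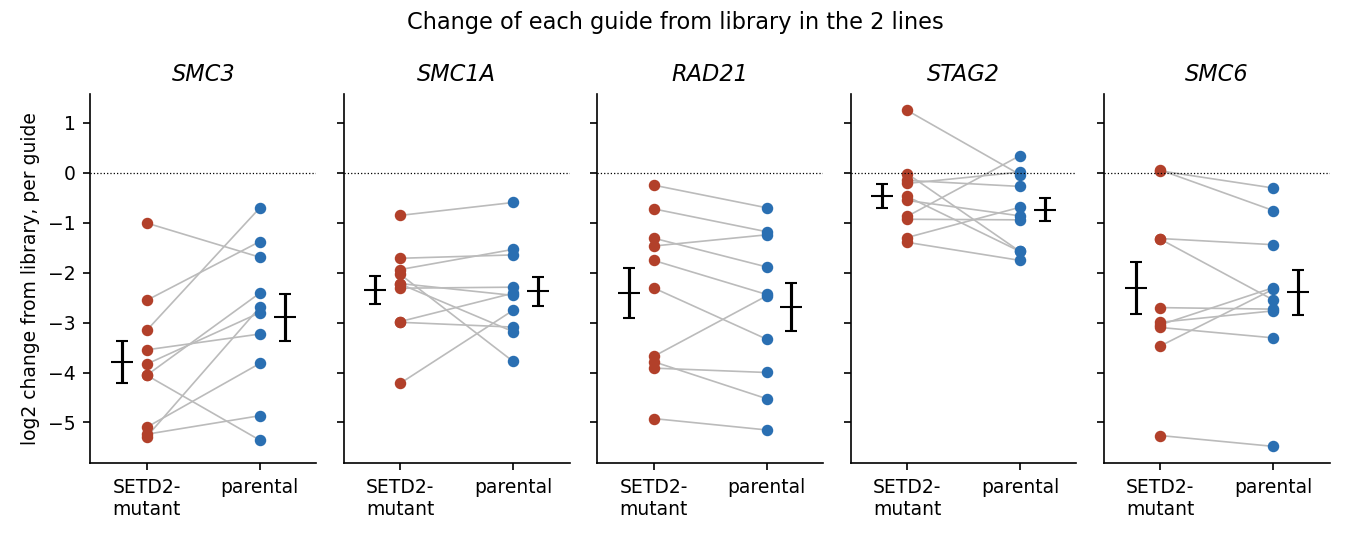
Log2 change from library (y axis) of each of the 10 guides of a gene in SETD2-mutant (left) and parental cells (right), with lines joining the same guide and black bars for the mean and SE over guides. The guides of SMC3 span −5.28 to −1.01 in SETD2-mutant and −5.35 to −0.71 in parental cells, and those of STAG2 span −1.39 to 1.25 in SETD2-mutant and −1.76 to 0.34 in parental cells.

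SETD2-mutant against parental cells is the comparison of a synthetic lethal screen, the search for gene losses that weigh more on the mutant line, and 0 of the 5 genes were called in either direction by edgeR and RRA. Of all genes, 1.28% were depleted and 1.04% enriched in this comparison. Before adjustment, SMC3 had an RRA p of 0.0250 for depletion and STAG2 an RRA p of 0.0195 for enrichment, and the other 3 were above 0.05 in both directions. The mean changes were −0.89 for SMC3 (SE 0.394, adjusted p = 0.532), 0.28 for RAD21 (SE 0.200, adjusted p = 0.994), 0.27 for STAG2 (SE 0.273, adjusted p = 0.480), 0.08 for SMC6 (SE 0.216, adjusted p = 0.972) and 0.02 for SMC1A (SE 0.273, adjusted p = 0.958). Each adjusted p is that of the direction of the mean. The SETD2-mutant replicates of SMC3 both lay below the parental ones on the mean over guides, as 38.8% of all genes did, and those of RAD21 and STAG2 both lay above, as 26.9% of all genes did. SMC1A and SMC6 overlapped on that measure.

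In the edgeR fit SMC3 had the largest mean difference between the lines among the 5 genes, and its guides moved in both directions. With the SETD2-mutant changes scaled to equal ribosomal protein loss, it stood at −0.37, closer to 0 than RAD21 at 0.61 and SMC6 at 0.40. Mean changes from library were −3.88 and −3.72 in the SETD2-mutant replicates and −2.73 and −3.14 in the parental replicates. Between the lines 8 of its 10 guides were lower and 2 higher, with 4 called down and 2 called up by edgeR per guide. Guide HZD_DDR_1909 was lowest at −2.59 (adjusted p = 0.000971), with 18 and 17 counts in SETD2-mutant, 126 and 132 in parental and 897 and 831 in library samples. Guide HZD_DDR_1915 was at −2.45 (adjusted p = 0.00224), with 36 and 97 counts in SETD2-mutant and 527 and 337 in parental samples. Guide HZD_DDR_1907 went the other way at 1.30 (adjusted p = 0.0169), with 41 and 44 counts in SETD2-mutant and 18 and 24 in parental samples. Guide HZD_DDR_1915 was singled out after its values were seen. The call of HZD_DDR_1907 was lost without parental replicate 1 (adjusted p = 0.0634) and without library replicate 1 or 2 (adjusted p = 0.0555 and 0.0549). With only the 2 groups compared in the fit, HZD_DDR_1907 was not called either (1.30, adjusted p = 0.2655 by edgeR). Without parental replicate 1 the mean of SMC3 was −0.57. The rank of SMC3 was 153 of 7090 from the most depleted gene. The gene was called lower by limma on gene means (−0.87, adjusted p = 0.00418) and by summed counts (−0.73, adjusted p = 0.00324), tests that called 22% and 21.2% of all genes depleted between the lines.

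The other genes also had guides that moved in opposite directions. For SMC1A, HZD_DDR_1903 was at −1.46 (adjusted p = 0.00595), with 33 and 57 counts in SETD2-mutant and 132 and 164 in parental samples, and HZD_DDR_1904 at 1.74 (adjusted p = 0.00197), with 165 and 173 counts in SETD2-mutant and 62 and 62 in parental samples. For STAG2, HZD_ODT_09624 was at −1.22 (adjusted p = 0.00468) and HZD_ODT_09623 at 1.56 (adjusted p = 0.00178). For SMC6, HZD_DDR_1924 was at −1.14 (adjusted p = 0.0439) and HZD_DDR_1917 at 1.22 (adjusted p = 0.0104). The extremes of RAD21 were not called, HZD_DDR_1541 at −1.21 (adjusted p = 0.237) and HZD_DDR_1547 at 1.02 (adjusted p = 0.0734), although HZD_DDR_1546, between them at 0.58, was called up (adjusted p = 0.0232), a guide named after its values were seen. Without SETD2-mutant replicate 2, HZD_DDR_1547 was called (adjusted p = 0.0418). The call of HZD_DDR_1917 was lost without parental replicate 1 (adjusted p = 0.0559), and that of HZD_DDR_1924 without SETD2-mutant replicate 1, parental replicate 2 or either library replicate (adjusted p 0.0804 to 0.188). With only the 2 groups compared in the fit, HZD_DDR_1924 was not called either (−1.15, adjusted p = 0.1497 by edgeR). In all, 7 of the 50 guides were called down and 9 up between the lines. Of all guides, 12.8% were called down and 11.5% up.

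**Figure D4:**
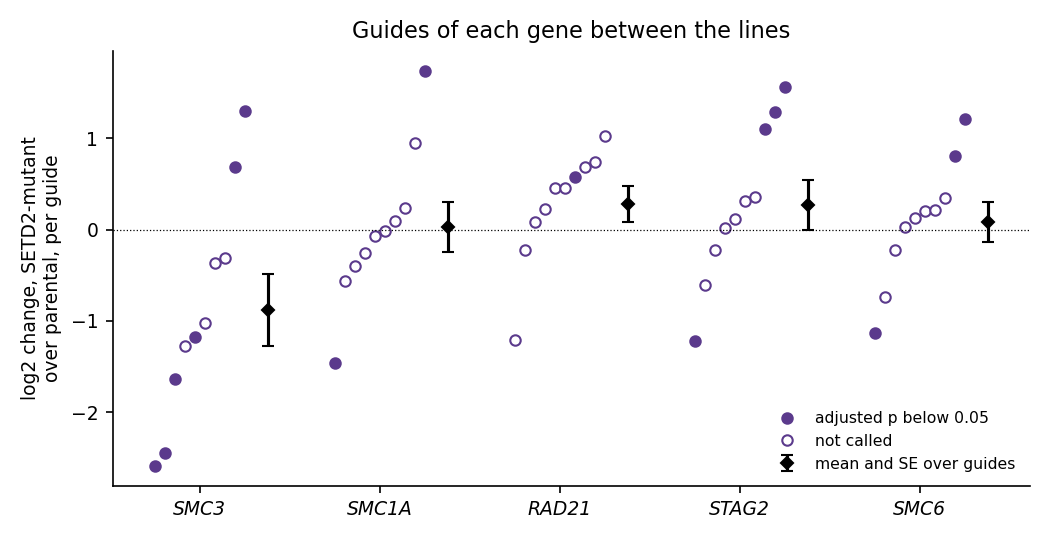
Log2 change of SETD2-mutant over parental cells (y axis) for each guide, sorted within a gene, with filled points for guides called by edgeR and diamonds for the mean and SE over 10 guides. SMC3 has guides from −2.59 to 1.30 around a mean of −0.89, and the means of the other 4 genes lie between 0.02 and 0.28.

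Between the lines, the median of the ribosomal protein genes was −0.61, with 1 of 53 called depleted. The lines were therefore also compared after the SETD2-mutant changes were divided by 1.16, the ratio of the ribosomal medians. On this scale SMC1A stood at 0.34 and STAG2 at 0.33. Here RRA ranked guides by the scaled difference itself, whereas the main test ranked them by their edgeR p-values. RAD21 was then called enriched (adjusted p = 0.0111 by RRA), as 2.54% of all genes were. Effects of the scaling and of the changed ranking were not tested apart. RAD21 was called enriched by summed counts as well (0.33, adjusted p = 0.00482), together with STAG2 (0.32, adjusted p = 0.00958) and SMC6 (0.31, adjusted p = 0.0160), and limma on gene means called STAG2 (0.27, adjusted p = 0.0289). Summed counts called 20% and limma 12.6% of all genes enriched.

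Proteins that load, position or release cohesin gave a partial picture, since 4 of 13 listed genes were measured, NIPBL, CTCF, HDAC8 and PTTG1. In SETD2-mutant cells NIPBL and CTCF were depleted against library, in parental cells NIPBL and PTTG1, and by edgeR and RRA 0 of the 4 were called between the lines. The median change of the 4 genes was −1.35 in SETD2-mutant and −1.24 in parental cells, and 0.03 between the lines, where the median of all genes was −0.04. By limma on gene means CTCF was called lower between the lines (−0.62, adjusted p = 0.0154) and HDAC8 higher (0.18, adjusted p = 0.0338). By summed counts CTCF was called lower (−0.27, adjusted p = 0.00721), and HDAC8 (0.24, adjusted p = 0.00607) and PTTG1 (0.35, adjusted p = 0.0166) higher. Of all genes, limma called 22% lower and 12.6% higher between the lines, and summed counts called 21.2% lower and 20% higher. NIPBL, the cohesin loader, was depleted by −2.14 (SE 0.573, adjusted p = 0.00109 by edgeR and RRA) in SETD2-mutant and by −2.02 (SE 0.531, adjusted p = 0.000202) in parental cells. Its guides summed to 60.3 and 55.9 CPM in SETD2-mutant, 58.5 and 62.2 CPM in parental and 151.8 and 151.0 CPM in library samples, so the lines overlapped. These were 39.8% and 36.9% of its library abundance in SETD2-mutant and 38.6% and 41.1% in parental samples. CTCF, the DNA-binding protein at which cohesin loops stop, was at −1.64 (SE 0.607, adjusted p = 0.0486) in SETD2-mutant and −1.04 (SE 0.455, adjusted p = 0.0527) in parental cells, values on either side of the threshold. Its difference between the lines was −0.61 (SE 0.257, adjusted p = 0.436), and its guides summed to 91.4 and 84.6 CPM in SETD2-mutant, 106.1 and 106.2 CPM in parental and 173.2 and 173.7 CPM in library samples. The call in SETD2-mutant cells was lost with 6 alternative settings, at adjusted p from 0.0513 to 0.0730. In parental cells CTCF was called without SETD2-mutant replicate 1 or 2 (adjusted p = 0.00586 and 0.00593).

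PTTG1 encodes securin, the inhibitor of the protease that opens cohesin. It was depleted in parental cells (−1.44, SE 0.342, adjusted p = 0.0104) and was at −1.06 (SE 0.198, adjusted p = 0.0775) in SETD2-mutant cells. Without library replicate 1 or 2 PTTG1 was called in SETD2-mutant cells too (adjusted p = 0.0236 and 0.0261). When samples were scaled on the guides labelled dummyguide, PTTG1 was not called in parental cells (adjusted p = 0.0707). HDAC8, the deacetylase that recycles SMC3, was at 0.16 (SE 0.295) in SETD2-mutant and −0.02 (SE 0.166) in parental cells and was not called. The guides of HDAC8 summed to 157.4 and 156.0 CPM in SETD2-mutant, 133.1 and 132.9 CPM in parental and 145.4 and 137.0 CPM in library samples. Both SETD2-mutant sums of HDAC8 lay above both parental sums, as for 32.7% of all genes.

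Of 7 genes listed for cohesion at the replication fork, DDX11 and TIPIN were measured. DDX11, a helicase that helps to establish cohesion, was depleted by −2.08 (SE 0.374, adjusted p = 1.13e-05 by edgeR and RRA) in SETD2-mutant and by −1.74 (SE 0.275, adjusted p = 9.48e-06) in parental cells. TIPIN, of the fork protection complex, was depleted in parental cells (−1.42, SE 0.593, adjusted p = 0.00281) and was at −0.87 (SE 0.382, adjusted p = 0.523) in SETD2-mutant cells. When RRA used only the top 0.1 share of ranks, TIPIN was not called in parental cells (adjusted p = 0.582). In SETD2-mutant cells TIPIN was called depleted with dummyguide scaling (−1.80, adjusted p = 0.0386), with limma on gene means (−0.91, adjusted p = 3.13e-05) and with summed counts (−0.56, adjusted p = 6.61e-06). There dummyguide scaling called 550 of all 7090 genes depleted, limma 38% and summed counts 32.7%. Between the lines DDX11 was at −0.34 (SE 0.160, adjusted p = 0.539) and TIPIN at 0.54 (SE 0.263, adjusted p = 0.432), and neither was called by edgeR and RRA. TIPIN was called higher in SETD2-mutant cells by limma on gene means (0.47, adjusted p = 0.00286), a test that called 12.6% of all genes enriched, and by summed counts (0.25, adjusted p = 0.00273), which called 20%. DDX11 was called lower by limma on gene means (−0.33, adjusted p = 0.00483), as 22% of all genes were. None of the listed meiotic cohesin subunits, condensin subunits or SMC5/6 partners were analysed here.

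**Figure D5:**
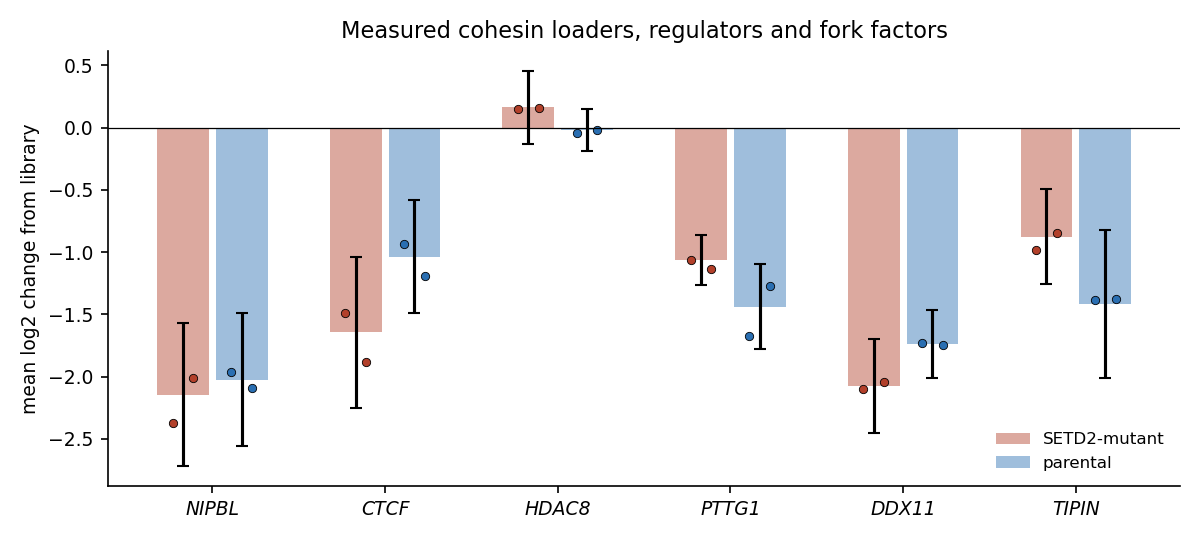
Mean log2 change from library (y axis) of 6 cohesin loaders, regulators and fork factors, in SETD2-mutant (left bar) and parental cells (right bar); error bars are the SE over 10 guides and points are the 2 replicates. NIPBL and DDX11 lie lowest, and HDAC8 lies near 0 in both lines.

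Genes with the nearest profile to each subunit were found by the Euclidean distance over the 4 replicate changes from library, among 7052 other genes with 8 or more guides. For SMC6 the nearest was POLA1, the catalytic subunit of DNA polymerase alpha, at a distance of 0.071 log2 units, and then C1D at 0.113. For SMC1A, CDK7, the kinase of TFIIH, lay at 0.194. For RAD21 they were HUS1, of the checkpoint clamp, at 0.303 and KANSL3, of the NSL acetyltransferase complex, at 0.360. For STAG2 they were the ubiquitin-conjugating enzyme UBE2H at 0.057 and C19orf12 at 0.128, and for SMC3 they were ORAOV1 at 0.234 and C3orf17 at 0.254. None of the 5 subunits was among the 2 nearest genes of another. The closest pair was SMC1A and RAD21 at 0.568, where RAD21 was the 57th nearest gene of SMC1A and SMC1A the 18th nearest of RAD21. SMC1A and SMC6, of different complexes, lay almost as close at 0.579, as the 59th nearest of SMC1A and the 39th of SMC6. SMC1A and SMC3, both arms of the ring, lay further apart at 2.23.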

How the data were processed

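The authors deposited raw counts per guide, which were whole numbers with a different total in each sample. The submitters' processing notes name MAGeCK and the hg38 build without their settings. Per the labels' protocols, guides were recovered by PCR on extracted DNA and sequenced in 75 bp single-end runs. Groups come from the genotype labels, and all 6 columns were matched to samples by title.

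The 100 guides labelled dummyguide were left out of library sizes and tests. A minimum of 30 counts, averaged over the library samples, left 71470 guides and set 56 aside. All 5 genes kept 10 guides. TMM factors scaled the counts, and a model by group over the 6 samples was run in edgeR 4.0.16 in R 4.3.3 (glmQLFit, robust, and glmQLFTest). Guide p-values were adjusted by Benjamini-Hochberg over all guides. Guides were combined by RRA, rebuilt from its published description, using ranks up to a share of 0.25 and, for 10 guides, 4000000 seeded null draws. Genes needed 3 guides, which 7090 had, and each direction was adjusted over all of them. Levels of single samples are TMM-scaled CPM, and replicate changes use log2 CPM with a prior count of 2. Coordinates are RefSeq's for GRCh38.p14. The test was tried on simulated counts in which all guides of a changed gene moved alike and samples were drawn independently. It was not tried on uneven guides or shared transductions. Alternatives covered DESeq2 1.42.0, limma 3.58.1, scaling, filters, the replicate block and single samples left out. P-values by edgeR, DESeq2 and limma rest on the spread between samples of a group, library included. Replicates of a line share a transduction, so the spread between transductions is not measured. P-values by RRA compare the ranks of a gene's guides with the null draws. Intervals cover counting error only.

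The members and lists were chosen with earlier results of these data known. The rule for named genes took all measured members, the extreme guides of each member between the lines and in parental cells, every measured list gene called in any comparison with up to 2 others per list, and the 2 nearest genes of each member. One result that this rule covers is not reported here.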

Additional observations from a re-analysis of the deposited data

Results flagged for a closer look

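Of the extreme guides of each gene, those of 4 genes differed between the lines by edgeR's test of the difference itself, at adjusted p from 0.000971 to 0.0439. The extremes of RAD21 were not called, although 1 of its other guides was. Among all guides 12.8% were called down and 11.5% up, and among the 50 guides of the 5 genes 7 were called down and 9 up. The extreme guides were HZD_DDR_1909 (−2.59) and HZD_DDR_1907 (1.30) of SMC3, HZD_DDR_1903 (−1.46) and HZD_DDR_1904 (1.74) of SMC1A, HZD_ODT_09624 (−1.22) and HZD_ODT_09623 (1.56) of STAG2, and HZD_DDR_1924 (−1.14) and HZD_DDR_1917 (1.22) of SMC6. In each of these 4 genes the extremes lay on opposite sides of 0. Each guide was picked as the extreme of its gene on the same change that was tested, which favours a call. The share of all genes whose extreme guides were called was not computed, so these calls do not set the 4 genes apart. The replicates of a line share 1 transduction, and whether differences between guides arose there was not tested. With only the 2 groups compared in the fit, HZD_DDR_1907 (adjusted p = 0.2655 by edgeR) and HZD_DDR_1924 (adjusted p = 0.1497) were not called. The call of HZD_DDR_1907 was lost without parental replicate 1 and without either library replicate (adjusted p = 0.0634, 0.0555 and 0.0549). That of HZD_DDR_1917 was lost without parental replicate 1 (adjusted p = 0.0559), and that of HZD_DDR_1924 without SETD2-mutant replicate 1, parental replicate 2 or either library replicate, at adjusted p from 0.0804 to 0.188.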

How the results depend on the processing

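The 4 depletion calls of SMC3, SMC1A, RAD21 and SMC6 in each line kept their side of the threshold under all 17 alternatives. Between the lines, limma on gene means called 1 gene depleted and 1 enriched, summed counts called 1 depleted and 3 enriched, and equal ribosomal protein loss called 1 enriched. Directions between the lines reversed for SMC1A with dummyguide scaling (−0.12), with summed counts (−0.091) and without SETD2-mutant replicate 1 (range with single samples left out −0.15 to 0.14), for SMC6 with dummyguide scaling (−0.064) and without SETD2-mutant replicate 2 (range −0.24 to 0.29), for NIPBL at equal ribosomal protein loss (0.17), and for the RAD21 guide HZD_DDR_1541 without parental replicate 1 (range −2.23 to 0.29). Dummyguide scaling moved the median of all genes to −0.97 in SETD2-mutant cells and −0.79 in parental cells against library, and to −0.19 between the lines. There HDAC8 reversed against library in SETD2-mutant cells (−0.76) and the STAG2 guide HZD_ODT_09624 in parental cells (−0.44). The causes were not tested. Over all genes, 91 depleted and 74 enriched between the lines compare with 1561 and 895 by limma on gene means, 1503 and 1417 by summed counts, and 180 enriched at equal ribosomal protein loss. Against library, 641 depleted and 80 enriched in SETD2-mutant cells compare with 2693 and 1687 by limma and 2320 and 2138 by summed counts, and the 80 with 35 by dummyguide scaling and 53 without SETD2-mutant replicate 1. In parental cells 702 and 78 compare with 2217 and 1674 by limma and 2149 and 2092 by summed counts. With single samples left out, SMC3 ranged from −1.07 to −0.57 between the lines (adjusted p 0.0904 to 0.916). Same-numbered replicates did not deviate together (correlations of −0.005, −0.0025 and −0.00505 over guides), and with the replicate block SMC3 stood at −0.88 (adjusted p = 0.311) and, as without the block, 4 of the 5 genes were called depleted in each line and 0 between the lines. The block brought PTTG1 in SETD2-mutant cells (adjusted p = 0.0305) and CTCF in parental cells (adjusted p = 0.0479) past the threshold.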

Other observations

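Replicates of a line disagreed most for strongly depleted guides. Between the SETD2-mutant replicates 10 of the 50 guides differed by more than 2-fold in scaled abundance, as 6.07% of all guides did, and between the parental replicates 5 did, as 3.77% of all guides did. All of these guides stood under 25% of their library abundance. Among guides under 25%, 10 of 27 of the 5 genes (37.0%) and 32.6% of all differed by that much in SETD2-mutant cells, and 5 of 27 (18.5%) and 24.0% of all in parental cells. Between the library samples 0 of the 50 guides and 0 of all 71470 guides did so. The SMC3 guide HZD_DDR_1911 had 8 and 27 counts in SETD2-mutant samples and 50 and 5 counts in parental samples, and the exact Poisson intervals (95%) of the parental counts were 37.1 to 65.9 and 1.62 to 11.7. The RAD21 guide HZD_DDR_1541 had 45 and 19 counts in SETD2-mutant samples and 164 and 31 in parental samples. The SMC3 guide HZD_DDR_1914 had 16 and 111 counts in SETD2-mutant samples and 264 and 196 in parental samples. These guides were chosen after their values were seen.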
